A study of Mus musculus with 9 samples.

Results

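The comparison examined was the genotype by activation interaction in primary splenic B cells of mice. For each gene it is the change from day 0 to day 3 in Mct1f/fMb1Cre cells minus the same change in Mb1Cre cells, so a negative value means that the gene rose less, or fell more, in the Mct1-deficient cells. All 9 of the 9 RNA sequencing libraries of the series entered it, and it was computed for 10823 of 17596 listed genes, those with a mean of at least 1 FPKM (fragments mapped to a gene, scaled to its length and to all mapped fragments of the library) over the libraries. Values are on the log2(FPKM + 1) scale, which understates the change of genes with low levels. A gene was called when the adjusted p of limma was under 0.05 and the difference exceeded 0.5 in size on that scale.

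Day 0 held 2 libraries of naive cells from Mb1Cre mice and 2 from Mct1f/fMb1Cre mice, and day 3 held 2 and 3 libraries of cells after culture with IL-4 at 50 ng/ml together with 10 μg/ml of LPS. Both genotypes carry Cre under the Mb1 locus, which is active from early B cell development on, and the controls lack the floxed allele. In Mct1f/fMb1Cre mice the floxed stretch runs from exon 1 to intron 3 of Mct1, which the table lists as Slc16a1 (chr3:104638664-104658462, GRCm38). The mice were on a B6 background, and the methods give 6 to 8 weeks for the mutants. The labels name neither the sex of the mice nor how many mice stand behind a library. The study used the design to ask how loss of this transporter alters B cells in a culture that drives class switching.

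LPS triggers Toll-like receptor 4 and IL-4 signals through STAT6. Together they take resting follicular B cells out of quiescence, and the cells grow, divide, shift their metabolism, display costimulatory ligands, secrete cytokines and switch from IgM toward IgG1 and IgE. MCT1 carries lactate, pyruvate and ketone bodies together with protons across the plasma membrane. BATF3 is a small leucine-zipper factor that pairs with JUN proteins and binds DNA with IRF4 or IRF8, and IL1R2 is a decoy receptor that binds interleukin-1 without signalling.

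The libraries of a group resembled each other, with Pearson's r across genes of at least 0.993, and the FPKM of a library summed to between 477079 and 563586. All 10 B cell markers were present in each library. RNA of other cells was present and changed with the day. The 17 myeloid markers summed to between 1578 and 2883 FPKM on day 0 and to between 28.2 and 41.4 FPKM on day 3. The 10 erythroid markers summed to between 147 and 262 FPKM on day 0 and to between 10.4 and 20.8 FPKM on day 3, when 3 to 5 of them were listed at 0. T and NK cell markers, 13 in all, summed to between 121 and 141 FPKM on day 0 and to between 168 and 221 FPKM on day 3. Most of them fell all the same. Of the 12 that were tested, 9 were called lower and 2 higher on day 3 in each genotype. The myeloid and erythroid sums were highest in the first Mct1f/fMb1Cre library of day 0. That library also differed from the other library of its group in Y-linked transcripts. Ddx3y, a Y-linked gene, was at 0.24 and 0.02 FPKM in the Mb1Cre libraries and at 31.1 and 0.20 FPKM in the Mct1f/fMb1Cre libraries of day 0, and at 14.7 to 16.9 FPKM in the 5 libraries of day 3. The day 3 libraries of Mb1Cre therefore held RNA of mice that were not in those of day 0. Without the first Mct1f/fMb1Cre library of day 0, Y-linked transcripts are near 0 in all libraries of day 0 and present in all of day 3 in both genotypes. Counts of called genes without it are given below, but the part of sex in the other results was not tested.

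Slc16a1 itself responded less in the Mct1-deficient cells. On day 0 it was at 4.33 and 3.80 FPKM in Mb1Cre and at 3.71 and 4.06 FPKM in Mct1f/fMb1Cre. After activation it reached 22.6 and 22.9 FPKM in Mb1Cre and 10.8, 9.81 and 9.50 FPKM in Mct1f/fMb1Cre. The groups overlapped on day 0 and were apart on day 3. The rise was 2.23 in Mb1Cre and 1.18 in Mct1f/fMb1Cre, an interaction of −1.06 ± 0.11 (SE, adjusted p = 0.000424, limma). In an exact two-sided permutation of the genotype labels within each day, 5 of 60 arrangements gave a difference as large (p = 0.0833, where 0.0167 is the smallest possible). A value for the whole gene also counts exons outside the floxed stretch, so the day 0 values do not check the deletion.

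Activation itself changed most of the tested genes in both genotypes. In Mb1Cre, 2687 genes were higher on day 3 (24.8% of those tested) and 3571 were lower (33.0%). In Mct1f/fMb1Cre, 2532 were higher (23.4%) and 3588 were lower (33.2%). The split depended on scaling, since 2074 genes were higher and 4442 lower in Mb1Cre with libraries scaled to a common sum, and 3433 and 2731 with median-of-ratios scaling. The median change of all tested genes in Mb1Cre moved from −0.12 to −0.31 and 0.07 under them, whereas the median interaction stayed between −0.02 and 0.01.

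Against that background, 350 genes responded differently in the Mct1-deficient cells. A more negative interaction was called for 240 genes (2.22% of those tested) and a more positive one for 110 (1.02%). The median size among the called genes was 0.66, and 40 negative and 16 positive interactions exceeded 1. Without the first Mct1f/fMb1Cre library of day 0, 232 genes were more negative and 108 more positive, of which 191 and 84 were shared with the full set. Over all tested genes the median interaction was −0.02. In bulk RNA, a smaller share of cells that express a gene and a lower level per cell cannot be told apart for any of these genes.

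**Figure D1:**
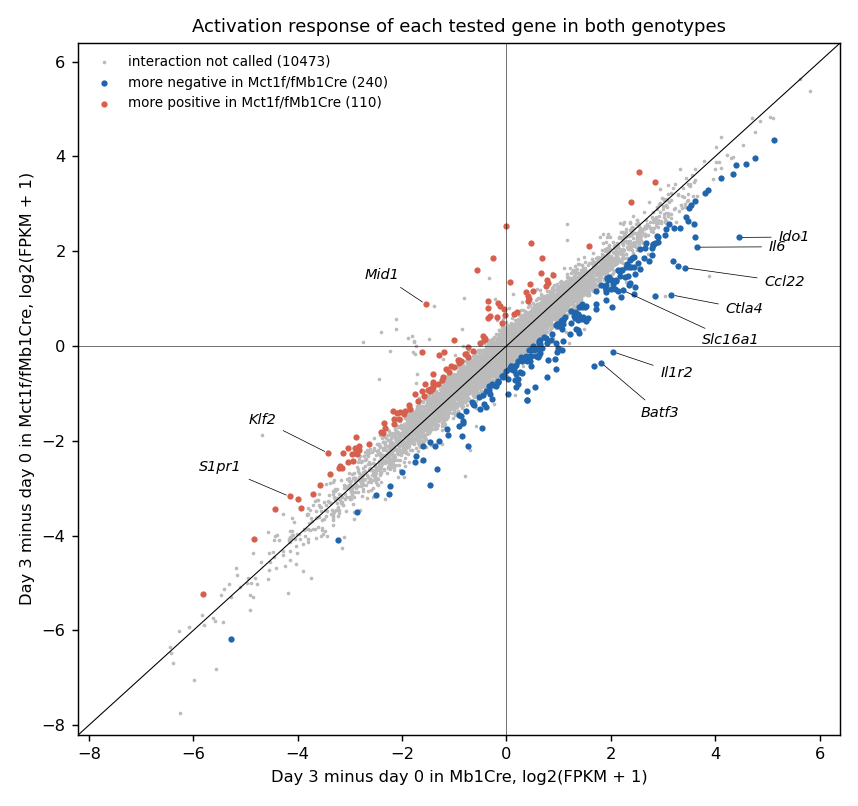
Change from day 0 to day 3 on the log2(FPKM + 1) scale in Mb1Cre (x axis) and Mct1f/fMb1Cre (y axis) for 10823 genes, with the line of equal change. Blue points mark the 240 genes with a more negative interaction and red points the 110 with a more positive one, and named genes such as Ido1 (4.45 in Mb1Cre, 2.29 in Mct1f/fMb1Cre) lie off the line on the side of a smaller change.

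The most frequent classes were genes that moved in the same direction in both genotypes but less far in Mct1f/fMb1Cre. Of the 240 genes with a more negative interaction, 112 rose in both genotypes and 43 rose in Mb1Cre without a called change in Mct1f/fMb1Cre. Another 31 fell in both and 34 fell only by the Mct1f/fMb1Cre call. Jchain rose in Mb1Cre and fell in Mct1f/fMb1Cre, and the other 19 were called in neither. Of the 110 genes with a more positive interaction, 56 fell in both genotypes and 18 fell by the Mb1Cre call alone, while 20 rose by the Mct1f/fMb1Cre call alone and 11 rose in both. The predicted gene Gm46353 fell in Mb1Cre and rose in Mct1f/fMb1Cre, and 4 were called in neither. These classes share their libraries with the interaction and describe it without testing it.

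**Figure D2:**
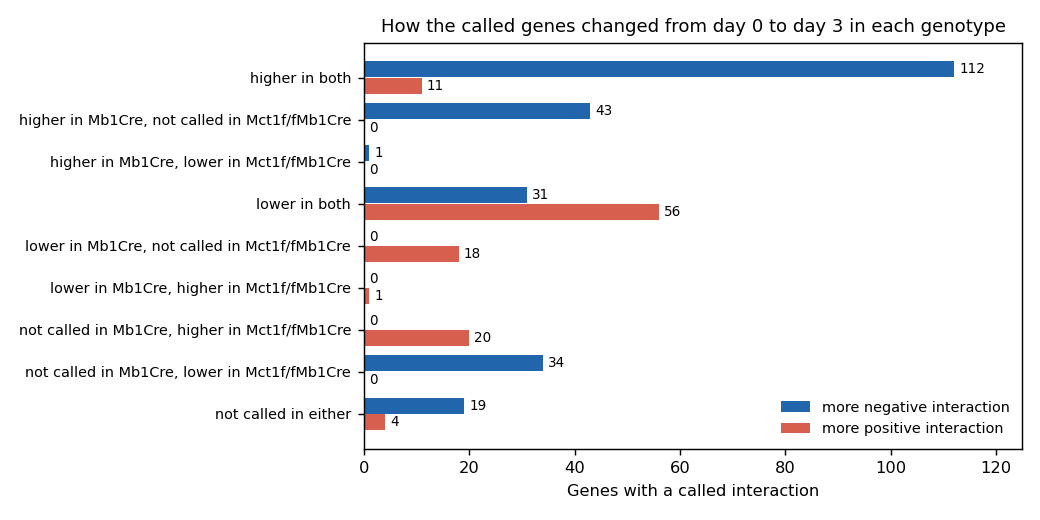
Number of genes with a called interaction (x axis) by how each was called between day 0 and day 3 in Mb1Cre and Mct1f/fMb1Cre (y axis), with blue bars for more negative and red bars for more positive interactions. The longest bars are the 112 genes that rose in both and the 56 that fell in both.

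For most called genes the genotypes differed more after activation than before. The genotype difference was larger in size on day 3 than on day 0 for 208 of the 240 negative genes and for 96 of the 110 positive ones. The median difference of the negative genes was 0.13 on day 0 and −0.54 on day 3, and that of the positive genes was −0.13 and 0.50. Genes whose difference lay on day 0 are named as such below.

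Batf3 did not rise in the Mct1-deficient cells. It was at 5.73 and 8.36 FPKM in Mb1Cre and at 6.84 and 7.65 FPKM in Mct1f/fMb1Cre on day 0. On day 3 it was at 28.8 and 25.2 FPKM in Mb1Cre and at 5.44, 6.56 and 4.51 FPKM in Mct1f/fMb1Cre. The day 3 libraries of Mct1f/fMb1Cre thus lay below all day 3 controls and 2 of the 3 lay below every day 0 library. The change was 1.82 in Mb1Cre and −0.35 (not called) in Mct1f/fMb1Cre, with an interaction of −2.17 ± 0.22 (adjusted p = 0.000452, limma).

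Il1r2 followed the same course at a lower level. On day 0 it ranged from 2.40 to 5.94 FPKM over the 4 libraries, and the genotypes overlapped. On day 3 it was at 20.1 and 17.8 FPKM in Mb1Cre and at 4.62, 3.81 and 4.45 FPKM in Mct1f/fMb1Cre. Every Mct1-deficient library of day 3 was below both controls. Its change of 2.05 in Mb1Cre stood against −0.12 (not called) in Mct1f/fMb1Cre, an interaction of −2.17 ± 0.36 (adjusted p = 0.00537, limma).

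Batf3 stood alone among its relatives with a negative call. Of 24 tested BATF, JUN, FOS and IRF factors it was the 1 with a more negative interaction, Fosb and Jund were more positive, and the median was 0.01. Batf, the closest relative of Batf3 and needed for class switching, rose from between 13.2 and 15.3 FPKM on day 0 to 181 and 165 FPKM in Mb1Cre and to 146, 139 and 141 FPKM in Mct1f/fMb1Cre. Its interaction of −0.40 ± 0.07 (adjusted p = 0.00946, limma) was under the size limit. Irf4, the partner of BATF factors and a driver of plasma cell fate, reached 80.3 and 77.8 FPKM in Mb1Cre and 55.9, 55.2 and 57.5 FPKM in Mct1f/fMb1Cre, an interaction of −0.45 ± 0.06 (adjusted p = 0.00279, limma) that also missed the limit. Fosb differed on day 0 rather than day 3. It was at 8.33 and 7.98 FPKM in Mb1Cre and at 3.24 and 4.65 FPKM in Mct1f/fMb1Cre on day 0, and at or below 0.04 FPKM in every library of day 3. Jund was called at 0.51 ± 0.14 (adjusted p = 0.0472, limma), just above the limit, and lost the call in 14 of 19 alternatives.

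**Figure D3:**
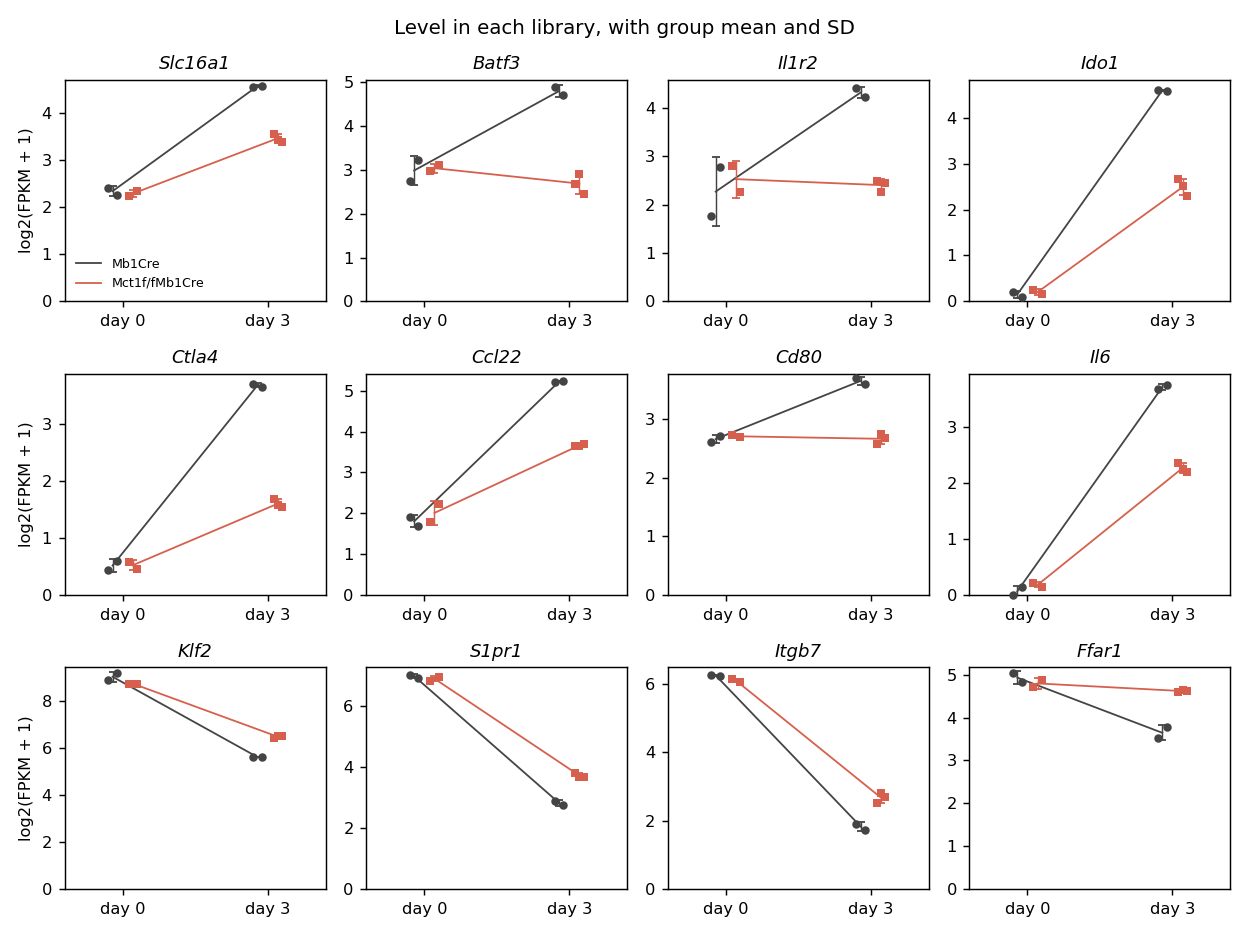
Level of 12 genes on the log2(FPKM + 1) scale (y axis, from 0) on day 0 and day 3 (x axis), with 1 point per library, lines between group means and bars of 1 SD (n = 2 or 3). The upper 8 genes rose less in Mct1f/fMb1Cre (squares), as with Ctla4 at 2.23, 1.99 and 1.91 FPKM against 12.1 and 11.6 FPKM in Mb1Cre (circles) on day 3, and the lower 4 fell less.

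The counts over gene lists that follow stand against the 2.22% of all tested genes that were called more negative and the 1.02% called more positive. These shares depended on the response of the controls. Among genes that rose in Mb1Cre, 5.81% were more negative and 0.41% more positive. Among those that fell, the shares were 0.87% and 2.1%. The median interaction was −0.09 among genes that rose in Mb1Cre and 0.04 among those that fell. Over all tested genes 53.5% lay below 0. Lists made up mostly of rising genes, such as mitosis, are to be read against the values of rising genes. Lists made up mostly of falling genes, such as B cell identity factors, are to be read against those of falling genes. An unadjusted p under 0.05 in limma, in either direction, was found for 2745 of all tested genes (25.4%). List counts at that p are to be read against this share. Ligands and receptors of costimulation were called more negative above the 2.22% and the 5.81%. Like the other lists, theirs was chosen with earlier results of these data known, so the count is a description and no test. Of 18 tested members 4 were more negative, none was more positive, and the median interaction was −0.23. Ctla4, a receptor that competes for CD80 and CD86, was at 0.35 to 0.52 FPKM in the 4 libraries of day 0. It rose to 12.1 and 11.6 FPKM in Mb1Cre and to 2.23, 1.99 and 1.91 FPKM in Mct1f/fMb1Cre, with an interaction of −2.08 ± 0.13 (adjusted p = 4.09e-05, limma). Its ligand gene Cd80 stood at 5.11 to 5.58 FPKM on day 0 and rose in Mb1Cre, to 11.9 and 11.1 FPKM. In Mct1f/fMb1Cre Cd80 was at 4.93, 5.70 and 5.34 FPKM, and the interaction was −1.03 ± 0.10 (adjusted p = 0.000424, limma). Cd86, the other ligand, rose from 27.0 and 30.8 to 57.5 and 59.6 FPKM in Mb1Cre and was at 38.7, 40 and 42.8 FPKM in Mct1f/fMb1Cre on day 3 (interaction −0.55). Tnfsf9, which encodes the ligand of 4-1BB, reached 9.43 and 10.8 FPKM in Mb1Cre and 5.58, 5.40 and 5.78 FPKM in Mct1f/fMb1Cre (interaction −0.64). Its call was kept in 13 of 18 alternatives.

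Of 20 tested cytokines and chemokines, 6 were more negative and none was more positive, with a median of −0.24. Il6, a proinflammatory cytokine and B cell growth factor, was at or below 0.16 FPKM in every library of day 0. On day 3 it was at 11.8 and 12.4 FPKM in Mb1Cre and at 4.13, 3.76 and 3.58 FPKM in Mct1f/fMb1Cre, an interaction of −1.56 ± 0.13 (adjusted p = 0.000157, limma). Ccl22, a chemokine that attracts T cells bearing CCR4, went from 2.75 and 2.25 to 36.1 and 36.7 FPKM in Mb1Cre and from 2.48 and 3.66 to 11.5, 11.5 and 12.02 FPKM in Mct1f/fMb1Cre (interaction −1.77 ± 0.16, adjusted p = 0.000298, limma). Il10, the anti-inflammatory cytokine of regulatory B cells, reached 4.71 and 4.73 FPKM in Mb1Cre and 1.59, 2.07 and 2.06 FPKM in Mct1f/fMb1Cre (interaction −1.04). Ebi3, the subunit shared by interleukin-27 and interleukin-35, reached 227 and 214 FPKM in Mb1Cre and 128, 138 and 134 FPKM in Mct1f/fMb1Cre (interaction −0.70). In each of these 4 genes every Mct1-deficient library of day 3 was below both controls. The remaining called members were Il12a (−0.70), which fell in both genotypes, and Ccl5 (−0.69), which fell by the Mct1f/fMb1Cre call alone. The count was 6 without the first Mct1f/fMb1Cre library of day 0 and between 4 and 7 over all 19 alternatives.

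Ido1, which starts tryptophan breakdown along the kynurenine route, was the only called member of 12 tested in the tryptophan and aryl hydrocarbon receptor list. It was nearly silent on day 0 (0.07 to 0.19 FPKM in the 4 libraries). It rose to 23.3 and 23.2 FPKM in Mb1Cre and to 5.32, 4.73 and 3.92 FPKM in Mct1f/fMb1Cre, an interaction of −2.16 ± 0.15 (adjusted p = 6.32e-05, limma).

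Cytokine receptors moved both ways. Il2ra, the high-affinity interleukin-2 receptor chain, rose from between 2.69 and 3.35 FPKM to 44.9 and 48.8 FPKM in Mb1Cre and to 27.1, 29.2 and 28.2 FPKM in Mct1f/fMb1Cre (interaction −0.59). Il2rb, its signalling partner, had an interaction of −0.66. Il9r, at 0.70, and Lifr, at 0.68, were more positive, though Il9r lost the call in 12 of 19 alternatives. The list had 29 tested members and a median of −0.01. Of the interleukin-4 and STAT6 response, 2 of 15 tested members were more negative, namely Ccl22 and Socs3, a feedback inhibitor of STAT signalling that reached 33.5 and 30.9 FPKM in Mb1Cre and 17.4, 18.4 and 19.4 FPKM in Mct1f/fMb1Cre (interaction −0.98). The median of this list was −0.02. Of 15 tested members of the interleukin-1 and interleukin-18 family, Il1r2 alone was called.

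Interferon-stimulated genes, whose products restrict viruses and which B cells induce through type I interferon and IRF factors, rose in both genotypes but less in Mct1f/fMb1Cre. Of 32 tested members 28 rose in Mb1Cre and 25 in Mct1f/fMb1Cre, 29 had an interaction below 0, 7 were called more negative and none more positive. The median interaction was −0.33, made up of a genotype difference of 0.18 on day 0 and −0.17 on day 3. Their FPKM summed to 724 and 812 in Mb1Cre and to 796 and 885 in Mct1f/fMb1Cre on day 0, and to 2608 and 2588 in Mb1Cre and to 2223, 2305 and 2303 in Mct1f/fMb1Cre on day 3. The sums overlapped between genotypes on day 0 and did not on day 3. Over the alternatives the count ran from 3 to 11 and the median from −0.45 to −0.22, with 9 called and a median of −0.42 without the first Mct1f/fMb1Cre library of day 0.

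Isg15, a ubiquitin-like modifier, went from 12.5 and 11.8 to 198 and 183 FPKM in Mb1Cre and from 11.7 and 15.8 to 134, 145 and 145 FPKM in Mct1f/fMb1Cre (interaction −0.58). Ifit1, which binds viral RNA caps, reached 18.6 and 20.1 FPKM in Mb1Cre and 13.4, 14.5 and 14.2 FPKM in Mct1f/fMb1Cre (−0.84 ± 0.16, adjusted p = 0.0119, limma). Ifih1, the cytosolic sensor MDA5, reached 20.6 and 21.6 FPKM in Mb1Cre and 15.7, 15.0 and 16.3 FPKM in Mct1f/fMb1Cre (−0.72). In these genes the Mct1-deficient libraries lay below the controls on day 3, whereas on day 0 those of Ifit1 and Ifih1 lay above them. Rsad2 (−0.99), Ifi44 (−1.17), Oasl2 (−0.63) and the guanylate-binding protein gene Gbp5 (−0.57) made up the rest. The interaction of Ifit1 missed the threshold without the second Mb1Cre library of day 3 (adjusted p = 0.0537, limma), and the interaction of Rsad2 missed it without the first (adjusted p = 0.0528, limma).

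**Figure D4:**
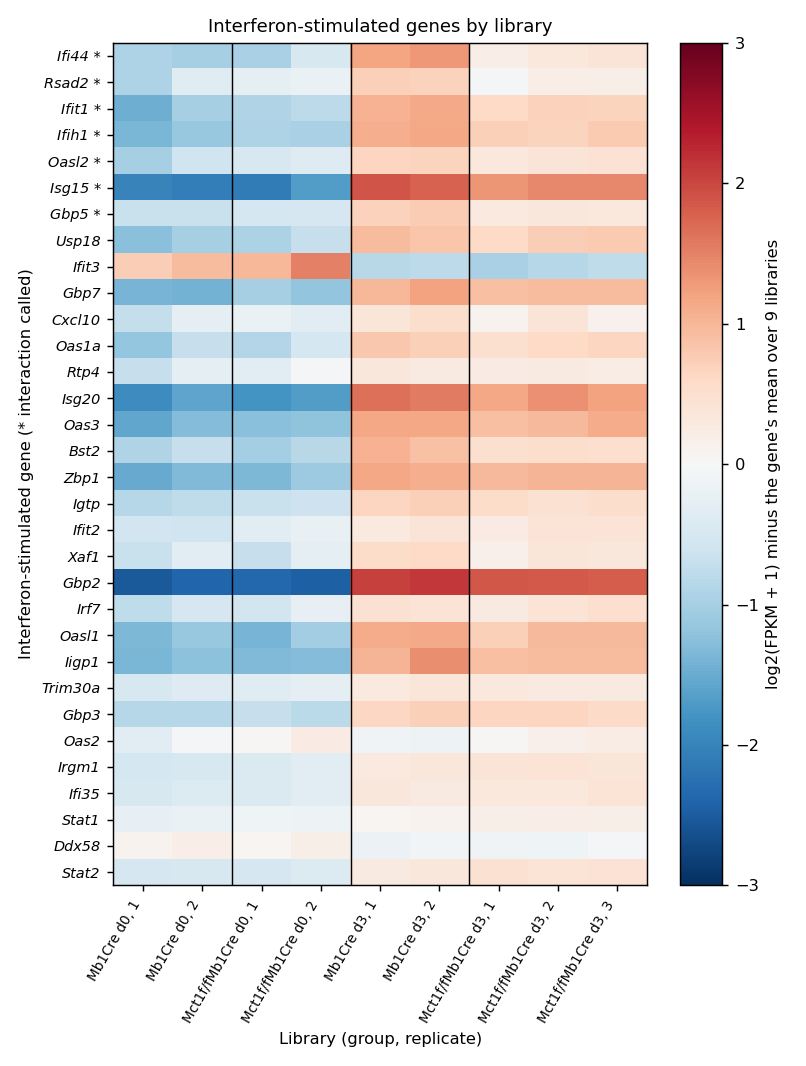
The 32 tested interferon-stimulated genes (y axis, ordered by interaction, most negative at the top, asterisk where called) in each of the 9 libraries (x axis), coloured by log2(FPKM + 1) minus the mean of the gene over all libraries. Most genes change from blue on day 0 to red on day 3, and in the 7 called genes the red is paler in the 3 Mct1f/fMb1Cre libraries of day 3 than in the 2 Mb1Cre libraries.

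The promoters of this group are shown because a match to the interferon-stimulated response element, the site of IRF and STAT complexes, recurred in them. Sequences were taken from RefSeq (GRCm38.p6) and run from 250 bases before to 50 bases after the gene start, 5′ to 3′ on the strand of the gene. Of the 7 called members 5 held GAAA followed, after 2 bases of any kind, by a second GAAA, searched on both strands, and these 5 are printed with each match in capitals. Overlapping matches run together, as in Isg15, which holds 3.
Ifit1 (chr19:34640639-34640938, + strand): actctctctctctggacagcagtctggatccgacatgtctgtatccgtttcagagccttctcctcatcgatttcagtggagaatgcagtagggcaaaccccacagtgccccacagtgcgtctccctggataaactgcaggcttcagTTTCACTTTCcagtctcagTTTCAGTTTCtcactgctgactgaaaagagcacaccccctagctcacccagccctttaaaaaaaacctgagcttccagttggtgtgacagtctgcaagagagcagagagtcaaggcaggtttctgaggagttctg
Isg15 (chr4:156200769-156201068, - strand): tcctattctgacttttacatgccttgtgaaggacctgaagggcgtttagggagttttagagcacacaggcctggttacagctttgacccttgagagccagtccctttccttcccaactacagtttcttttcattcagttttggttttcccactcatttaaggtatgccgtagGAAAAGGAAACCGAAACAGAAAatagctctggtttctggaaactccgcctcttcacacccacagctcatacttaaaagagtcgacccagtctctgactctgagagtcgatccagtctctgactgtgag
Rsad2 (chr12:26456403-26456702, - strand): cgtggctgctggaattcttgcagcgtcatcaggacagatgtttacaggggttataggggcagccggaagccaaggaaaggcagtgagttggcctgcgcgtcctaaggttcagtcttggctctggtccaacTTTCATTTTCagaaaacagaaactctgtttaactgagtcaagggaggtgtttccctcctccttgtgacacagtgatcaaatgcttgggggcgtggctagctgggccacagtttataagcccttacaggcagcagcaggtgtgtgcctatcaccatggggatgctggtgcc
Ifih1 (chr2:62646206-62646505, - strand): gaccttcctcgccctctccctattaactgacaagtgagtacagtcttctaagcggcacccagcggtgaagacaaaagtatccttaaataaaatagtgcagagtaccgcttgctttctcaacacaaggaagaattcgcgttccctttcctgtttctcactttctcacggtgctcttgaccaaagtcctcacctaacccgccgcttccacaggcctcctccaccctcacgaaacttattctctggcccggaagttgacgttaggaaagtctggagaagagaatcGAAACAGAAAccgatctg
Gbp5 (chr3:142496684-142496983, + strand): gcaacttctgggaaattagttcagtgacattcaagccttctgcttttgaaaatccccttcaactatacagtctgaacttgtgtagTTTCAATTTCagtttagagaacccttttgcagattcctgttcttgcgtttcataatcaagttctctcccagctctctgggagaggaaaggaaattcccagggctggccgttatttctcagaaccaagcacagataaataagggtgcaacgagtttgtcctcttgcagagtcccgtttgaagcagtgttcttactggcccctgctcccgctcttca
In Ifit1 the matches began 104 and 85 bases before the gene start, and in Isg15 78, 72 and 66 bases before it. In Ifih1 the match began at base 33 of the transcript. Of all 26 tested members of the list with a promoter in the table, 18 held the letters.

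Across all genes with a more negative interaction and a promoter in the table, 19 of 185 (10.3%) held the response element letters, against 4 of 91 (4.40%) with a more positive interaction, 4.11% of 8790 tested genes and 3.99% of 27025 genes in the table. Of the 19, 5 are members of the interferon list, which does not hold every interferon-induced gene. Ifi207, Ifi211, Oas1g, Ifitm3 and Ddx60, named further below, are among the others. The AP-1 letters TGANTCA were held by 10.8% of the negative, 5.49% of the positive and 5.93% of the tested genes, and by 8.97% of all genes in the table. The kB letters, GGG and TTTCC with 2 bases of any kind between them, were held by 4.32%, 2.20%, 2.08% and 1.89%, respectively. The STAT letters, TTC and GAA with 4 bases of any kind between them, were held by 7.57%, 7.69%, 6.68% and 8.01%, and the hypoxia response letters ACGTGC by 10.8%, 7.69%, 9.67% and 6.68%. All 5 motifs were searched on both strands and gave 8 to 20 matching genes in the negative set, so these shares describe small numbers. Genes that rose in Mb1Cre without a called interaction, 2028 with a promoter, form a closer comparison. Of these, 4.64% held the response element letters, 5.03% the AP-1, 2.32% the kB, 8.14% the STAT and 10.7% the hypoxia response letters. A match is a run of letters and was not tested as a binding site.

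Genes of plasma cell differentiation were called more negative in 5 of 19 tested members, with a median of −0.19. Jchain, the joining chain of secreted IgM and IgA, was at 62.3 and 77.9 FPKM in Mb1Cre and at 160 and 117 FPKM in Mct1f/fMb1Cre on day 0, and at 126 and 116 FPKM against 98.1, 85.6 and 78.6 FPKM on day 3. The genotypes were thus apart in opposite directions on the 2 days, with differences of 0.97 (adjusted p = 0.019, limma) on day 0 and −0.47 (adjusted p = 0.0377, limma) on day 3. Mzb1, a chaperone of immunoglobulin heavy chains in the endoplasmic reticulum, rose from between 146 and 157 FPKM to 823 and 775 FPKM in Mb1Cre and to 582, 574 and 577 FPKM in Mct1f/fMb1Cre (interaction −0.55). Derl3 (−0.58), which exports misfolded proteins for degradation, Cd93 (−0.58), a survival receptor of plasma cells, and Zbtb20 (−0.52), a transcription factor of long-lived plasma cells, completed the called members. Prdm1, the master regulator of plasma cells, went the other way without a call. It reached 8.41 and 8.39 FPKM in Mb1Cre and 9.34, 10.0 and 9.85 FPKM in Mct1f/fMb1Cre, with an interaction of 0.20 (95% interval −0.06 to 0.46).

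No called gene lay in the class-switch recombination list (0 of 35 tested, median −0.04, with 4 negative and 3 positive at an unadjusted p under 0.05 in limma).

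Homing and adhesion was the list with the most positive calls, and its called genes are ones that resting, recirculating B cells express. Of 26 tested members 4 were more positive and 1 was more negative, with 11 members below 0 and a median of 0.05. Klf2, a quiescence factor that drives S1pr1 and L-selectin, fell from 468 and 579 FPKM to 47.5 and 48.0 FPKM in Mb1Cre and from 423 and 425 FPKM to 84.2, 89.8 and 89.9 FPKM in Mct1f/fMb1Cre (interaction 1.16 ± 0.11, adjusted p = 0.000364, limma). S1pr1, the receptor that lets lymphocytes leave lymphoid tissue, fell from between 112 and 128 FPKM on day 0 to 6.37 and 5.68 FPKM in Mb1Cre and 12.9, 11.8 and 11.6 FPKM in Mct1f/fMb1Cre (0.98 ± 0.10, adjusted p = 0.000424, limma). Itgb7, a chain of the gut-homing integrin, ended at 2.77 and 2.34 FPKM in Mb1Cre and at 4.68, 6.04 and 5.49 FPKM in Mct1f/fMb1Cre (1.00). In all 3 genes every Mct1-deficient library of day 3 was above both controls. S1pr4, a related receptor, had an interaction of 0.53. Ccr7, the receptor for the T cell zone chemokines, fell further instead, to 58.1 and 61.0 FPKM in Mb1Cre and 28.1, 29.7 and 31.4 FPKM in Mct1f/fMb1Cre (−0.78).

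B cell identity factors as a list leaned positive, with 16 of 20 tested members above 0 and a median of 0.19. Only Klf2 was called more positive and Myb more negative (−0.55). The 16 MHC class II genes had a median of 0.13 with 14 above 0, and none was called (6 positive and 0 negative at an unadjusted p under 0.05 in limma). Tlr9, the endosomal receptor for CpG DNA, fell less in Mct1f/fMb1Cre (0.60) and was the 1 called gene of 17 tested in LPS sensing and Toll-like receptors. The 23 tested NF-kB subunits and inhibitors held no call (4 positive and 3 negative at an unadjusted p under 0.05 in limma).

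**Figure D5:**
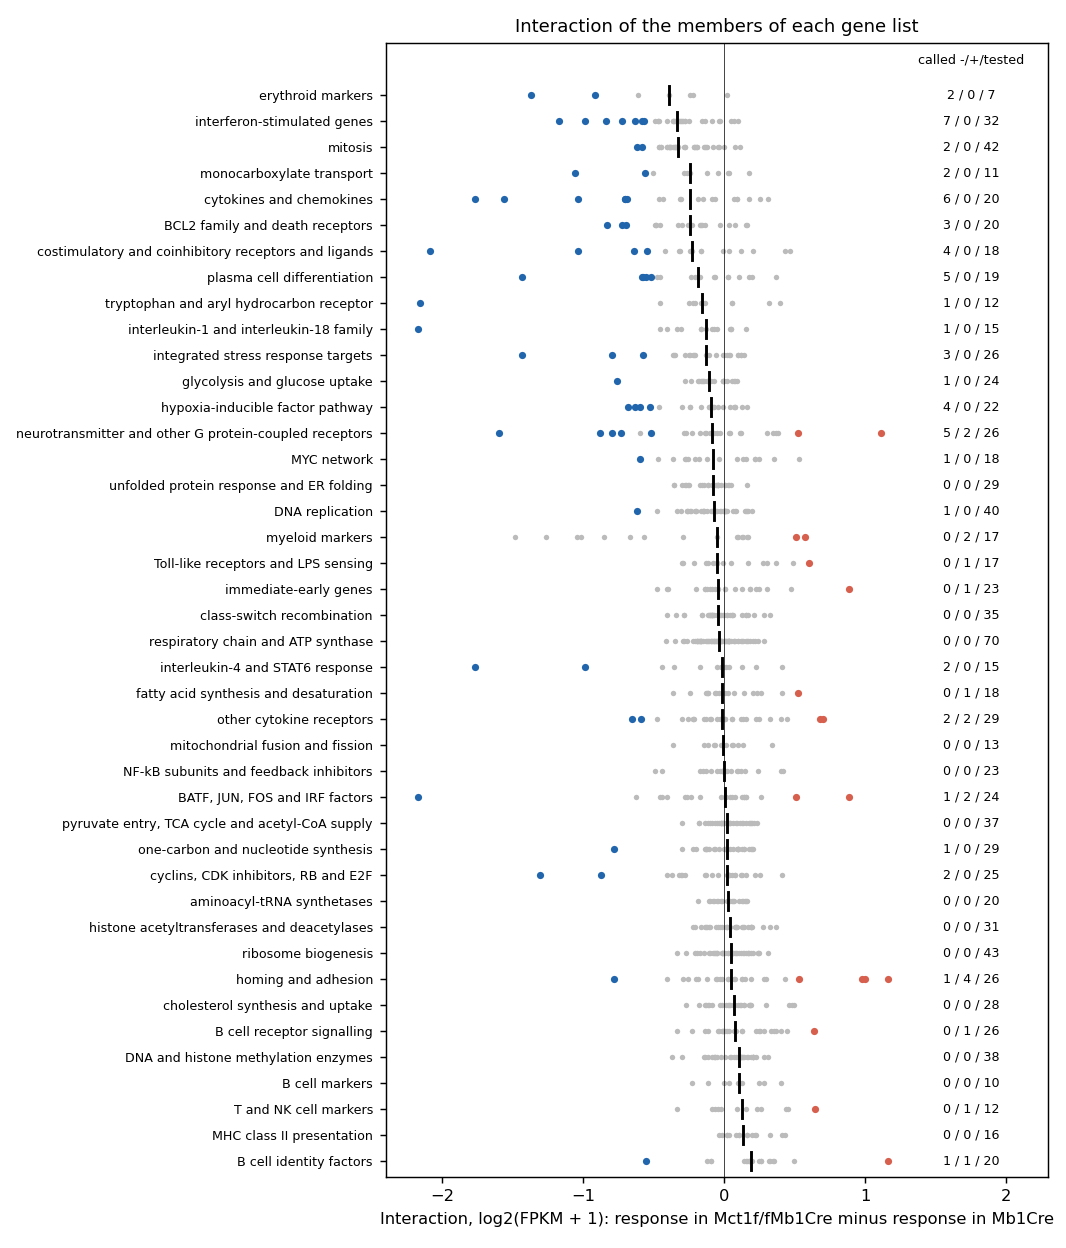
Interaction of each tested member (points) of 42 gene lists (y axis), on the log2(FPKM + 1) scale (x axis), with blue and red for called members and a black bar at the median of the list. Numbers at the right give called negative, called positive and tested members. Interferon-stimulated genes and mitosis have the lowest medians among the lists that are not markers of other cells (−0.33 each), and B cell identity factors the highest (0.19).

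G protein-coupled receptors moved in both directions, with 5 of 26 tested members more negative, 2 more positive and a median of −0.08. Htr7, a serotonin receptor, was at or below 0.25 FPKM on day 0 and reached 11.3 and 11.02 FPKM in Mb1Cre and 2.55, 2.66 and 3.31 FPKM in Mct1f/fMb1Cre (−1.60 ± 0.14, adjusted p = 0.000298, limma). The prostaglandin receptor genes Ptgir (−0.88) and Ptger4 (−0.52) and the purine receptor genes P2ry12 (−0.80) and P2ry13 (−0.73) were also more negative. Ffar1, a receptor for long-chain fatty acids, fell from 32.0 and 27.2 to 10.5 and 12.6 FPKM in Mb1Cre. In Mct1f/fMb1Cre it was at 25.2 and 28.5 FPKM on day 0 and at 23.1, 23.9 and 23.6 FPKM on day 3 (1.11 ± 0.13, adjusted p = 0.000842, limma). Cnr2, the cannabinoid receptor of B cells, fell in both genotypes and less in Mct1f/fMb1Cre (0.53).

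Metabolic lists held few called genes. Monocarboxylate transport held 2 called members of 11 tested, with a median of −0.24. They were Slc16a1, the targeted gene itself, and Emb (−0.56), the gene of a chaperone for these transporters. The call for Emb was lost in 13 of 19 alternatives. None of the 70 tested genes of the respiratory chain and ATP synthase was called. They lay between −0.41 and 0.29 with a median of −0.04 (8 negative and 2 positive at an unadjusted p under 0.05 in limma), and 51 of them rose in Mb1Cre and 50 in Mct1f/fMb1Cre. Pyruvate entry, TCA cycle and acetyl-CoA supply (37 tested, median 0.02), cholesterol synthesis (28 tested, median 0.07) and mitochondrial fusion and fission (13 tested, median −0.01) were likewise without a call. At an unadjusted p under 0.05 in limma they held 2, 1 and 1 negative and 4, 4 and 1 positive members.

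Of 24 tested glycolysis genes 18 rose in Mb1Cre and 17 in Mct1f/fMb1Cre, and Eno2, an enolase, was called more negative (−0.76), with a list median of −0.11. The call for Eno2 was kept in 14 of 18 alternatives. Ldha, which interconverts pyruvate and lactate, rose from between 144 and 158 FPKM to 808 and 784 FPKM in Mb1Cre and to 757, 772 and 726 FPKM in Mct1f/fMb1Cre, with an interaction of −0.01 (95% interval −0.14 to 0.13). Hk2, the inducible hexokinase, reached 17.9 and 17.2 FPKM against 15.3, 15.7 and 15.8 FPKM (interaction −0.23, 95% interval −0.42 to −0.05, adjusted p = 0.116, limma). The mitochondrial fusion genes Mfn1, Mfn2 and Opa1 had interactions of −0.01, 0.10 and 0.13 and did not change by more than the limit in either genotype. Fasn, the fatty acid synthase, was the only called member of 18 in its list and rose further in Mct1f/fMb1Cre, to 65.0, 66.1 and 71.5 FPKM against 49.9 and 53.7 FPKM (0.53), a call lost in 6 of 19 alternatives.

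Genes of the hypoxia-inducible factor pathway were more negative in 4 of 22 tested members, with a median of −0.09. Bnip3, a receptor for mitophagy, rose to 46.2 and 41.7 FPKM in Mb1Cre and to 33.6, 34.6 and 29.5 FPKM in Mct1f/fMb1Cre (−0.68). Bhlhe40 (−0.63), Mxi1 (−0.60) and Bnip3l (−0.53) did not rise in Mb1Cre by the call, and Bhlhe40 fell in Mct1f/fMb1Cre. The interaction call for Bnip3l was kept in 14 of 19 alternatives. Of 26 tested integrated stress response targets 3 were more negative, and the median was −0.12. Nupr1, a stress-induced chromatin protein, rose in Mb1Cre from 5.06 and 5.75 to 11.1 and 11.5 FPKM. In Mct1f/fMb1Cre Nupr1 was at 5.85 and 5.73 FPKM on day 0 and at 3.91, 3.81 and 3.80 FPKM on day 3 (−1.44 ± 0.09, adjusted p = 4.65e-05, limma). Cth, the last enzyme of cysteine synthesis, rose from under 0.2 FPKM to 31.4 and 30.2 FPKM in Mb1Cre and to 15.5, 17.2 and 16.8 FPKM in Mct1f/fMb1Cre (−0.80). Slc7a3, an arginine transporter, had an interaction of −0.57, with the call kept in 14 of 19 alternatives. The unfolded protein response list had no call among 29 tested genes (8 negative and 1 positive at an unadjusted p under 0.05 in limma), and neither had the 43 ribosome biogenesis genes (4 and 8) or the 20 aminoacyl-tRNA synthetases (1 and 3).

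Proliferation genes rose steeply in both genotypes. All but 2 of the 42 tested mitosis genes rose in each, and 40 of 42 had an interaction below 0, with a median of −0.33. Aurka (−0.61) and Bub1 (−0.58) were called, and 29 members were negative and 0 positive at an unadjusted p under 0.05 in limma. Aurka lost the call in 7 of 19 alternatives. Mitosis transcripts summed to 391 and 398 FPKM in Mb1Cre and to 428 and 449 FPKM in Mct1f/fMb1Cre on day 0, and to 1904 and 1945 FPKM against 1820, 1778 and 1782 FPKM on day 3. The median genotype difference of 0.17 on day 0 was larger in size than that of −0.11 on day 3. The erythroid marker sum was also higher in the Mct1f/fMb1Cre libraries on day 0 (262 and 188 FPKM against 183 and 147 FPKM), and its part in the mitosis values was not tested. The count of called mitosis genes ran from 0 to 5 over the alternatives and was 5 without the first Mct1f/fMb1Cre library of day 0. DNA replication (Gins1, −0.62, of 40 tested) and nucleotide synthesis (Tyms, the thymidylate synthase, −0.78, of 29 tested) held 1 negative call each, and Myc had an interaction of 0.24 (adjusted p = 0.135, limma). Mxi1, a MAX partner that opposes MYC, was the 1 called gene of 18 tested in the MYC network.

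The CDK inhibitor genes Cdkn1a and Cdkn2a were induced less. Cdkn1a, which encodes p21, rose from between 3.56 and 4.88 FPKM to 35.6 and 34.4 FPKM in Mb1Cre and to 17.5, 17.9 and 18.6 FPKM in Mct1f/fMb1Cre (−0.87 ± 0.14, adjusted p = 0.00441, limma). Cdkn2a, which encodes p16 and ARF, rose from under 0.5 FPKM to 14.9 and 14.2 FPKM and to 4.21, 5.99 and 4.14 FPKM, respectively (−1.30 ± 0.21, adjusted p = 0.00525, limma). These were the only calls among 25 tested cyclins, CDK inhibitors and RB and E2F genes, and the list median was 0.02.

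BCL2 family and death receptor genes had a median of −0.24, with 16 of 20 tested members below 0 and 3 called. Fas, the death receptor, reached 26.5 and 27.2 FPKM in Mb1Cre and 19.2, 18.4 and 19.4 FPKM in Mct1f/fMb1Cre (−0.72). Bcl2l11, which encodes the death-promoting BIM, rose to 46.6 and 48.1 FPKM against 31.1, 29.2 and 29.98 FPKM (−0.69). Bcl2a1d, a pro-survival member, rose to 220 and 215 FPKM against 132, 141 and 133 FPKM (−0.83), so both pro-death and pro-survival genes were among them. Bcl2a1d has near-identical copies, and reads may be divided between them.

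Chromatin enzymes held no call, among 31 tested histone acetyltransferases and deacetylases (median 0.04) and 38 DNA and histone methylation enzymes (median 0.10). At an unadjusted p under 0.05 in limma they held 2 negative and 8 positive members each. Crebbp, an acetyltransferase of histone H3, fell from between 15.9 and 18.5 FPKM to 7.29 and 7.57 FPKM in Mb1Cre and to 8.66, 8.87 and 9.18 FPKM in Mct1f/fMb1Cre. Its interaction of 0.37 ± 0.08 (adjusted p = 0.0173, limma) did not reach the size limit.

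Several genes with large interactions lay outside these groups or differed on day 0. Flt3, a growth factor receptor of lymphoid progenitors, was at 17.6 and 17.4 FPKM in Mb1Cre and at 6.67, 6.96 and 7.41 FPKM in Mct1f/fMb1Cre on day 3, against 12.3 to 18.9 FPKM on day 0 (−1.52). Ifi207, of the interferon-induced HIN-200 family, fell in both and further in Mct1f/fMb1Cre, from 18.1 and 15.7 to 1.17, 1.56 and 1.35 FPKM (−1.46), though reads may be divided with its close relatives. Cldn13, a claudin found in erythroid cells, was near 1 FPKM in most libraries, and its call (−1.41) was lost in 12 of 18 alternatives. Among the positive genes, Parm1 rose to 15.2, 13.8 and 14.6 FPKM in Mct1f/fMb1Cre and to 5.73 and 6.36 FPKM in Mb1Cre (1.13). Slc37a2, a sugar phosphate transporter of the endoplasmic reticulum, fell in Mb1Cre to 5.38 and 5.75 FPKM and was at 11.9, 10.4 and 10.3 FPKM in Mct1f/fMb1Cre (1.06), and Tmem267 had 1.58 and 1.06 against 3.35, 3.82 and 4.44 FPKM on day 3 (1.51). Marco, a scavenger receptor of macrophages and activated B cells, fell in Mb1Cre to 1.39 and 1.85 FPKM and was at 3.74, 3.01 and 4.36 FPKM in Mct1f/fMb1Cre (1.13).

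Some of the large positive values rested on single libraries or on day 0. Mid1, a ubiquitin ligase gene, was at 3.26 and 3.50 FPKM in Mb1Cre and at 22.03, 23.98 and 23.98 FPKM in Mct1f/fMb1Cre on day 3, but its 2 day 0 controls were at 5 and 26.4 FPKM. The interaction of 2.44 ± 0.66 (adjusted p = 0.0445, limma) lost its call in 14 of 19 alternatives and ranged from 1.34 to 3.53. Srp54b differed on day 0, at 7.68 and 7.67 FPKM in Mb1Cre and at 1.58 and 1.77 FPKM in Mct1f/fMb1Cre, whereas the day 3 libraries lay between 5.39 and 11.02 FPKM (2.12), and it has close copies between which reads may be divided. The histone genes H2bc11 (1.18), H3c1 (1.15) and H2ac13 (1.08) were at or below 3.03 FPKM in all libraries and lost their calls in 8 of 16, 8 of 18 and 6 of 18 alternatives. Predicted gene models made up 9 of the 240 negative and 10 of the 110 positive genes, against 3.26% of the tested genes. The largest were Gm40453 (−2.10), Gm42048 (−1.78) and Gm40525 (−1.53) on the negative side and Gm45988 (2.54), Gm46353 (2.16) and Gm40378 (1.69) on the positive side. Gm40378 lost its call in 12 of 19 alternatives and Gm40453 and Gm40525 in 6 of 19 each, whereas Gm42048, Gm45988 and Gm46353 kept theirs in all that were run. Gm42048 had the smallest adjusted p of these 6 genes (2.48e-07, limma), with 15.1 to 16.8 FPKM on day 0, 112 and 117 FPKM in Mb1Cre and 35.9, 36.6 and 35.0 FPKM in Mct1f/fMb1Cre on day 3. Gm40453 and Gm40525 differed on day 0, where the 2 Mct1f/fMb1Cre libraries were at 24.6 and 12.01 FPKM and at 46.9 and 20.5 FPKM.

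Markers of other cells gave few calls. Among 17 myeloid markers Lyz2 (0.57) and Adgre1 (0.51) were more positive, with calls lost in 13 and 11 of 19 alternatives, and S100a9, at between 166 and 514 FPKM on day 0, had an interaction of −1.48 ± 0.67 that was not called. Lyz2 fell from between 614 and 809 FPKM to 11.5 and 10.0 FPKM in Mb1Cre and to 16.8, 17.6 and 20.4 FPKM in Mct1f/fMb1Cre. Of 7 tested erythroid markers Car2 (−1.37) and Hba-a1 (−0.91) were more negative, with the call for Car2 lost in 7 of 19 alternatives. Hba-a1, an alpha globin, was at 49.5 and 44.8 FPKM in Mb1Cre and at 82.2 and 66.4 FPKM in Mct1f/fMb1Cre on day 0 and at or below 0.30 FPKM on day 3, and Hbb-bs, a beta globin, was listed at 0 in all libraries of day 3. Lat, a T cell adaptor, was the 1 called gene of 12 tested T and NK cell markers (0.64, lost in 9 of 18 alternatives). In that list Gzma and Thy1 had the highest means and rose in both genotypes, with interactions of −0.09 and −0.04. None of 10 B cell markers was called (1 negative and 2 positive at an unadjusted p under 0.05 in limma). Neither tested platelet or mast cell marker was called, with Pf4 at 0.40 and Ppbp at −0.09 (0 at an unadjusted p under 0.05 in limma), and the 4 Y-linked genes had interactions between −3.30 and −1.13 without a call (1 at an unadjusted p under 0.05 in limma).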

How the data were processed

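RNA of primary splenic B cells was sequenced in 9 libraries of 4 groups. The authors deposited 1 table of FPKM per gene and library, made, per the labels and the submitters' processing notes, with Bowtie2 on GRCm38 (mm10), with values scaled to transcript length and to all mapped fragments of a library. The file holds no counts, so the depth per library is unknown and no counting error is given. The labels name TRNzol and the study's methods an RNeasy kit for the extraction, and the counting program is not given in the sources used here. All 9 columns matched a label.

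The 10823 of 17596 genes whose FPKM averaged 1 or more were fitted on log2(FPKM + 1) in limma 3.58.1 (R 4.3.3), with 4 group means, an empirical Bayes trend and Benjamini-Hochberg adjustment over all tested genes. The interaction and both activation changes are contrasts of that fit and share libraries. Calls required an adjusted p under 0.05 and a difference over 0.5. As nothing ties libraries to separate mice, p-values measure the spread between libraries only.

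Named genes are Slc16a1, Batf3 and Il1r2, the 12 largest called interactions in each direction outside predicted models and the 3 largest among these, up to 4 called members of each list in each direction, genes given whether called or not, the Y-linked genes, and for lists of other cells the called members and the 2 with the highest mean. Il12a, Ccl5, Oasl2, Isg15, Gbp5, Zbtb20 and Ptger4 fall outside this rule and were chosen after their values were seen. Some genes that the rule names are not reported here. The members and lists were chosen with earlier results of these data known. Alternatives covered the pseudocount, the filter, scaling, the replicate block, the variance prior, the size limit and each library left out. A block with the replicate numbers of the Mb1Cre libraries crossed was added after seeing the data. The interaction fit was tried on simulated data with planted effects, all above the size limit and none in low genes. It therefore says nothing about finding smaller effects or effects in low genes. Gene positions and promoters came from RefSeq (GRCm38.p6). Of 350 called genes 346 were matched to a RefSeq gene. A promoter was available for 185 of the 240 more negative and 91 of the 110 more positive genes. Figures were drawn in Python 3.11.15 with matplotlib 3.10.9.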

Additional observations from a re-analysis of the deposited data

Results flagged for a closer look

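The test of the interaction itself singled out 240 genes with a more negative and 110 with a more positive response in Mct1f/fMb1Cre. Groups of 2 or 3 libraries are too small for a check of single outlying libraries.

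On the negative side, Slc16a1 had an interaction of −1.06, Batf3 of −2.17, Il1r2 of −2.17, Ido1 of −2.16, Ctla4 of −2.08 and Ccl22 of −1.77. Htr7 followed at −1.60, Il6 at −1.56, Flt3 at −1.52, Ifi207 at −1.46, Jchain at −1.44, Nupr1 at −1.44 and Cldn13 at −1.41. On the positive side, Mid1 had 2.44, Srp54b 2.12, Tmem267 1.51, H2bc11 1.18, Klf2 1.16 and H3c1 1.15. Marco had 1.13, Parm1 1.13, Ffar1 1.11, H2ac13 1.08, Slc37a2 1.06 and Itgb7 1.00.

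Among predicted gene models, Gm40453 had −2.10, Gm42048 −1.78, Gm40525 −1.53, Gm45988 2.54, Gm46353 2.16 and Gm40378 1.69. Gm45988 was at 0 or 0.08 FPKM in the 6 libraries other than the Mct1f/fMb1Cre libraries of day 3, where it was at 3.65, 5.48 and 6.36 FPKM.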

How the results depend on the processing

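The interaction counts depended most on the size limit and the pseudocount. With a limit of 1 on the log2 scale, 16 genes were more positive and 40 more negative, and with no limit 413 and 607. A pseudocount of 5 gave 43 and 113, and a mean of at least 5 FPKM left 157 more negative genes. With a single library left out, the counts ran from 88 to 154 positive and from 172 to 295 negative. For activation, a limit of 1 gave 1324 higher and 1867 lower genes in Mb1Cre and 1200 and 1794 in Mct1f/fMb1Cre, where no limit gave 3941 higher. With 1 library left out, activation counts ran from 2655 to 2756 higher and 3467 to 3622 lower in Mb1Cre, and from 2500 to 2599 and 3494 to 3625 in Mct1f/fMb1Cre. Nothing in the labels says that the replicate numbers of day 0 and day 3 mark shared mice, and the data gave no sign of pairing in Mb1Cre. The deviations of libraries with the same number correlated at −0.12 in Mb1Cre and at 0.05 and 0.06 in Mct1f/fMb1Cre, and a replicate block gave 88 positive and 186 negative genes. A block with the Mb1Cre numbers of day 3 crossed, chosen after seeing the data, gave 95 and 201. Of the 83 called genes that the naming rule gave, none reversed its direction under an alternative, and 27 lost the call with a pseudocount of 5, 24 with no filter on low values and 19 without the first Mb1Cre library of day 3, and the cause was not tested. Where 1 library of a group of 2 is left out, the lone library is assumed to vary like the other groups. The FPKM carry no counting error, and low genes rest on an unknown number of reads.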

Other observations

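The genes in this section were chosen after their values were seen, and no test beyond the fit over all genes was run on them. They were picked among called genes, so their directions say nothing about a group. Ifi204, an interferon-induced gene of the HIN-200 family outside the list described above, was at 9.82 and 13.6 FPKM in Mb1Cre and at 17.1 and 16.9 FPKM in Mct1f/fMb1Cre on day 0. On day 3 Ifi204 was at 4.10 and 3.88 FPKM and at 1.88, 1.69 and 2.45 FPKM, an interaction of −1.26. Plscr1, a phospholipid scramblase, rose from between 5.95 and 6.91 FPKM to 79.9 and 77.9 FPKM in Mb1Cre and to 45.2, 51.0 and 50.1 FPKM in Mct1f/fMb1Cre (−0.73). Slfn1 had −1.04, Ifi211 −0.95, Oas1g −0.93, Ifitm3 −0.89, Parp12 −0.82 and Ddx60 −0.75. Some of these are members of families whose reads may be divided between copies.

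Vim, which encodes the filament protein vimentin, fell from 277 and 274 FPKM to 105 and 101 FPKM in Mb1Cre and from 254 and 254 FPKM to 161, 170 and 172 FPKM in Mct1f/fMb1Cre, an interaction of 0.82 ± 0.06 (adjusted p = 7.34e-05, limma). Lgals1, a galectin that binds cell-surface sugars, had 0.82, Plec, a linker of filaments, 0.55, and Flna, an actin crosslinker, 0.53.

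Pim2, a survival kinase that cytokines induce, rose from between 36.0 and 37.9 FPKM to 98.0 and 97.5 FPKM in Mb1Cre and to 47.9, 48.5 and 46.5 FPKM in Mct1f/fMb1Cre (−1.03 ± 0.06, adjusted p = 2.17e-05, limma). The transcription factor genes Zbtb32, Tbx21 and Stat4 had interactions of −0.80, −0.60 and −0.52. Signalling genes with positive interactions included Rasgrp2 at 0.68, Zap70 at 0.66, Grap2 at 0.57 and Bank1 at 0.52.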
